A study of Mus musculus with 4 samples.

Results

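Interleukins are secreted proteins through which blood cells instruct each other to divide, survive or mature, and each acts through a receptor built from 1 or more membrane chains. Most receptors of the family signal through JAK kinases and STAT transcription factors. IL-1, IL-18 and IL-33 instead use receptors that recruit MyD88 and IRAK kinases, and IL-17 receptors recruit the adaptor Act1. In lymphoid tissue the receptors that share the common gamma chain carry growth and survival signals to T cells, B cells and NK cells. The genes described here are the 84 of 24943 genes in the deposited count table whose symbol is IL followed by a number and by letters or further digits. By role they are 36 ligands, 39 receptor chains, 6 inhibitors or decoys, 2 enzymes (Il4i1 and Il4i1b) and 1 antisense RNA (Il1bos). The rule uses names and no measured value, but it was chosen with earlier results of these data known.

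Poly(A) RNA was profiled in 4 spleens enlarged by tumour from transgenic mice, in a series on the TP63 fusion in lymphoma. The labels name neither the transgene nor its promoter, and give no age, sex, strain or normal spleen. All 4 samples carry the same tissue, genotype and treatment labels and form 1 group. Numbered in accession order, GW19 is lymphoma 1, GW95 is lymphoma 2, GW255 is lymphoma 3 and GW328 is lymphoma 4. A single group allows no test, so libraries are compared by rules of size and no p-value is given. Whether each spleen is from a different animal is not stated in the labels.

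The libraries held between 7773546 and 9602413 counts. CPM are counts scaled to a common effective library size. Intervals are exact Poisson 95% intervals and cover counting error only. A floor of 3 counts, used where a count is 0, is 0.379, 0.335, 0.294 and 0.330 CPM in lymphomas 1 to 4. The upper interval ends for a count of 0 are higher, at 0.466, 0.411, 0.362 and 0.406 CPM. The 8 B cell markers summed to 68.1, 1349, 4269 and 5891 CPM, and the 8 T cell markers to 3454, 2757, 36.9 and 655 CPM. Lymphomas 1 and 2 shared a set of genes at similar levels, though not their B cell markers: over 103 genes at 10 CPM or more in lymphoma 1 and at most 1/20 of that in both lymphomas 3 and 4, lymphoma 2 lay at a median of 0.665 of lymphoma 1, with quartiles of 0.623 and 0.712. Counts without lymphoma 2 are therefore given beside those of all libraries. In a bulk sample, fewer cells of a type and less RNA per cell cannot be told apart.

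Of the 84 genes, 17 had 0 counts in every library and 20 more had counts but stayed under 1 CPM (before TMM scaling) everywhere, with at most 7 counts in a library. The remaining 47 passed that filter, and 31 of them reached 10 CPM in at least 1 library, also before TMM scaling. Of all 24943 genes, 13543 passed the same filter and 10242 reached 10 CPM in a library. Receptor chains made up 24 of these 31 and ligands 6. Of the 36 ligands, 26 had a count in some library and 14 passed the filter. Of the 39 receptor chains, 34 had a count and 30 passed. Il3, Il9, Il20, Il25, Il31 and Il34 had no count, and Il2, Il5, Il6, Il13, Il17a and Il22 had at most 5 counts in any library. Il12b, the chain that pairs with the Il12a product to form IL-12, had 0 counts as well. Per length, on the FPKM scale, the median of the mean levels was 0.0420 for ligands and 1.27 for receptor chains. The highest means were 104.5 FPKM for Il2rg, 21.1 FPKM for the ligand gene Il16 and 14.1 FPKM for Il2rb.

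**Figure D1:**
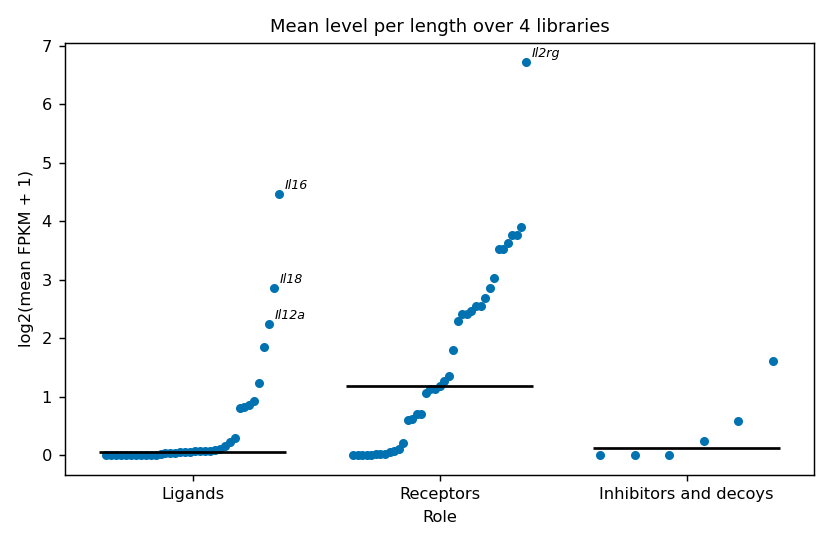
Mean level per length of each gene over the 4 libraries, as log2(mean FPKM + 1), by role; 1 point is 1 gene, genes are ordered by level within a role, and the line is the median. Most ligand genes lie at or near 0, while Il2rg stands above every other receptor gene.

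Many of the expressed members differed widely between the tumours. Of the 47 that passed the filter, 22 (46.8%) differed 8-fold or more between their highest and lowest library on the scale of CPM + 1, against 16.3% of 13543 genes that passed the same filter. Without lymphoma 2 the number was 21 (16.2% of all genes), and without lymphoma 1 it was 17 (10.4%). It fell to 13 without lymphoma 3 and to 14 without lymphoma 4, when the share over all genes was 10.8% and 8.77%. Without lymphoma 3 the 8-fold range was lost by Il12a, Il12rb1, Il17rb, Il18, Il1rl2, Il20rb, Il27ra and Il33 among the genes at 10 CPM or more, without lymphoma 1 by Il12a, Il18r1, Il18rap, Il1r2 and Il7r, and without lymphoma 4 by Il10, Il18r1, Il1r2, Il21, Il27ra and Il4ra. In the FPKM table, in FPKM + 1, it was lost by Il10, Il12rb1, Il18r1, Il18rap, Il1r2, Il1rl2, Il20rb, Il21 and Il27ra. The median SD over libraries was 1.23 on the log2(CPM + 1) scale for these 47 genes and 0.704 for all genes. The median biological coefficient of variation per gene from edgeR was 1.10 against 0.690. The members were also lower, with a median of the mean level of 8.92 CPM against 24.5 CPM, and the part that level plays in their spread was not tested.

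**Figure D2:**
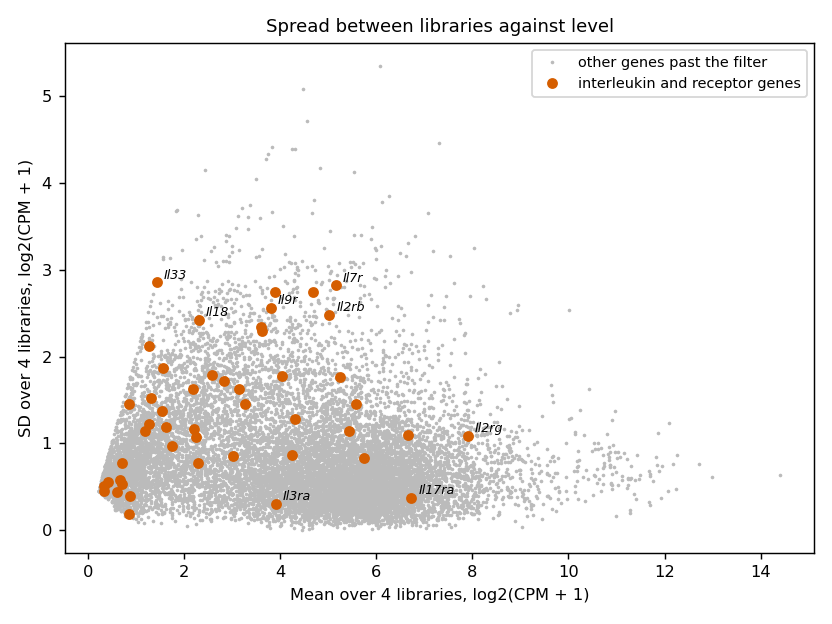
SD over the 4 libraries against the mean, both in log2(CPM + 1), for every gene past the filter of 1 CPM; orange points are the 47 interleukin and receptor genes and grey points all other genes. Il33 and Il7r lie high among genes of their level, whereas Il17ra and Il3ra lie low.

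Lymphoma 4 held the highest value of 29 of the 47 genes (61.7%), against 34.0% of all genes. Lymphoma 3 was highest for 8 (background 30.4%), lymphoma 1 for 7 (29.4%) and lymphoma 2 for 3 (6.32%). The lowest value lay in lymphoma 1 for 22 genes (35.7% of all genes), in lymphoma 3 for 17 (21.3%), in lymphoma 4 for 3 (33.2%) and in lymphoma 2 for 2 (5.07%), and 3 genes shared their lowest value between libraries (4.81%). The median log2 ratio of lymphoma 4 to lymphoma 1, in CPM + 1, was 1.07 for the members and 0.12 for all genes. Longer transcripts ran higher in lymphoma 4 than in lymphoma 1 over 13409 genes (Spearman rho 0.262, across genes). Among the 47 members the rho was -0.083. The median log2 ratio was 1.02 for the 24 shorter and 1.23 for the 23 longer members, against -0.32 and 0.46 for all genes split at the same length, and the part of length in the members' values was not tested. NK, neutrophil and dendritic cell markers were also mostly highest in lymphoma 4 (6, 6 and 8 of 8), as were 5 of 8 B cell and 5 of 8 macrophage markers, while 7 of 8 proliferation markers were lowest there (384 CPM in sum, against 1728 to 3018 CPM). The NK, neutrophil and dendritic cell sums there were 184, 628 and 113 CPM, against 3.03, 22.6 and 2.27 CPM in lymphoma 1. The part of all these in the interleukin values was not tested.

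**Figure D3:**
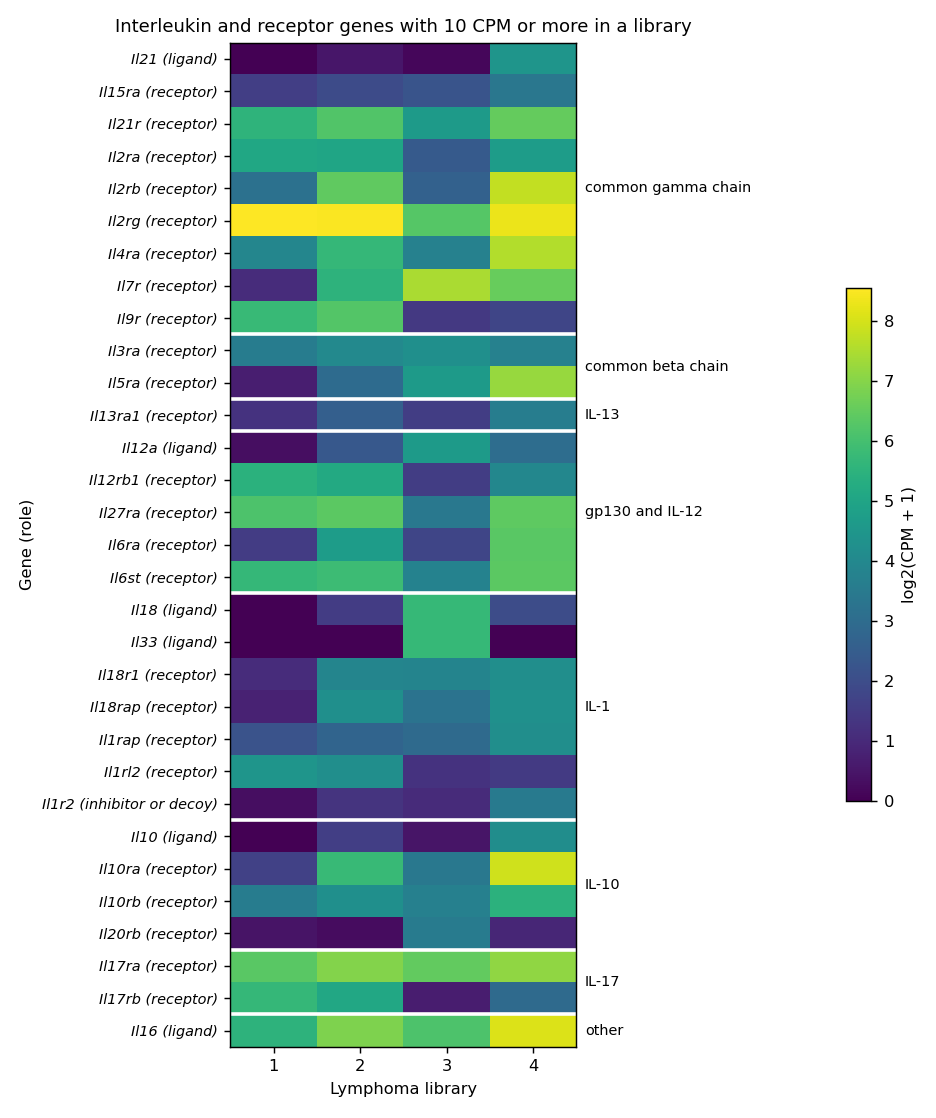
Level of the 31 genes that reached 10 CPM, as log2(CPM + 1) by colour; rows are genes grouped by receptor family with their role, columns are the 4 libraries. Il2rg is bright in each column, Il33 and Il18 in lymphoma 3 alone, and Il9r in lymphomas 1 and 2.

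Upstream sequence is shown for 4 genes whose counts sat mostly in 1 or 2 libraries, so that the stretch before their starts can be read beside their values. In GENCODE M21 (GRCm38), Il33 spans chr19:29925114-29960718, Il18 chr9:50554827-50581840, Il9r chr11:32187541-32200279 and Il5ra chr6:106710357-106749037. RefSeq windows (GRCm38.p6) matched 67 of the 84 genes by symbol, with 82 start sites. The 250 bases before each start were searched on both strands for 6 motifs, none of which contains another. The STAT motif was spelled TTCNNNGAA. The motif of the factors named GATA was spelled AGATAA. That of PU.1 was spelled GAGGAA, that of RUNX factors TGTGGT, that of TCF factors ATCAAAG and that of E2A was spelled CAGCTG. Capitals mark matches. The Il33 window is at chr19:29924863-29925112 on the plus strand, Il18 at chr9:50554450-50554699 on the plus strand, Il9r at chr11:32200280-32200529 on the minus strand and Il5ra at chr6:106749038-106749287 on the minus strand, each written 5′ to 3′ on its gene's strand.
Il33: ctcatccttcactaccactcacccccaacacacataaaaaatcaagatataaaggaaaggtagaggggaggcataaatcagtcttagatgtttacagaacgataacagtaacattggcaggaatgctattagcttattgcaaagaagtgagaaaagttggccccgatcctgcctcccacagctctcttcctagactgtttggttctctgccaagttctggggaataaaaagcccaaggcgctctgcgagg
Il18: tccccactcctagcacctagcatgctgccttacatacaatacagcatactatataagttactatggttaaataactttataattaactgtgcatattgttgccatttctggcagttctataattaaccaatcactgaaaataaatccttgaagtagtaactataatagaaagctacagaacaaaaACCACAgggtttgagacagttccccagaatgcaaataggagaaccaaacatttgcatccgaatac
Il9r: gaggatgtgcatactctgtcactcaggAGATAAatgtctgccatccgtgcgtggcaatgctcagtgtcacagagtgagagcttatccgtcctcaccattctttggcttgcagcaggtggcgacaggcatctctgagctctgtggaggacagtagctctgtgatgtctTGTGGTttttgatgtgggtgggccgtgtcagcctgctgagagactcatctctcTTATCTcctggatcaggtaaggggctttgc
Il5ra: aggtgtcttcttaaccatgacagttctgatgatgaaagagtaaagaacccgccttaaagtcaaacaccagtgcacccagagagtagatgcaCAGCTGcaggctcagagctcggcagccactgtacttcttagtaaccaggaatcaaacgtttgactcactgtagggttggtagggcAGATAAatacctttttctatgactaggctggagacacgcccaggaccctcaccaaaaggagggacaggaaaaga
The Il33 window, at the first of its 2 RefSeq starts, holds none of the 6 motifs. Il18 has 1 RUNX match, Il9r has 2 GATA and 1 RUNX matches, and Il5ra has 1 E2A and 1 GATA match. Over the 82 windows, the STAT motif was found in 11.0% (7.02% of 32851 windows of all genes), GATA in 15.9% (9.99%), PU.1 in 29.3% (23.3%), RUNX in 19.5% (14.0%), TCF in 2.44% (3.21%) and E2A in 12.2% (13.0%). The median GC content was 50% in the members' windows and 52.4% in all windows. A match is a description of these letters and not evidence of binding.

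Il2rg encodes the common gamma chain, shared by the receptors for IL-2, IL-4, IL-7, IL-9, IL-15 and IL-21. In lymphomas 1 to 4 it reached 373, 363, 76.7 and 311 CPM, the highest mean of all 84 genes at 281 ± 139 CPM (SD, n = 4). Lymphomas 1, 2 and 4 were near each other, and lymphoma 3 lay 4.86-fold below lymphoma 1 (exact 95% interval of the ratio 4.49 to 5.26). Of its exon bases 30.5% also belong to the overlapping gene Gm20489, so its count depends on how shared reads were assigned. The partner chains took different courses, and all 8 receptor genes of this family reached 10 CPM before TMM scaling.

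Il7r (chr15:9505788-9530176, minus strand), the alpha chain for IL-7, a growth factor of early B cells and of T cells, was at 1.14, 44.8, 177 and 92.5 CPM. No 2 of its intervals overlapped, and lymphoma 1, with 9 counts, stood 8-fold or more below every other library, as did 0.753% of all genes. The ratio of lymphoma 3 to lymphoma 1 was 155 (81.7 to 340.3). Its highest library was thus the one with the fewest T cell counts. Its ligand gene Il7 had at most 7 counts in a library.

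Il9r, the receptor chain for the T cell and mast cell growth factor IL-9, ran the other way. It was at 53.1, 76.1, 1.67 and 2.42 CPM. Lymphomas 1 and 2 were high, and lymphomas 3 and 4 were low and did not differ beyond counting error. The ratio of lymphoma 2 to lymphoma 3 was 45.6 (28.3 to 78.7). Il9r was the only interleukin gene among the 103 genes above, all low in lymphomas 3 and 4. Its ratio of lymphoma 2 to lymphoma 1 was 1.43 (1.27 to 1.62), above the quartiles of those genes. Of the 6 mast cell and basophil markers, Fcer1a and Ms4a2 had 0 counts in each library, and the sums of the list were 3.28, 1.56, 0.491 and 1.65 CPM. Mcpt8 had 15, 5, 3 and 2 counts, Cpa3 11, 4, 0 and 8, Gata2 0, 5, 0 and 5, and Prss34 0, 0, 2 and 0. The part of such cells in Il9r was not tested.

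Il2rb, the beta chain for IL-2 and IL-15, was at 8.21, 86.1, 5.30 and 216 CPM. Lymphomas 4 and 2 were high, while the intervals of lymphomas 1 and 3 overlapped. Il2ra, the alpha chain that gives the IL-2 receptor its high affinity, was at 33.2, 31.7, 4.32 and 25.6 CPM, and only lymphoma 3 was low. Lymphoma 1 thus held Il2ra and Il2rg with little Il2rb. Il15ra, which presents IL-15, reached at most 9.46 CPM, in lymphoma 4, and was lowest in lymphoma 1 at 2.02 CPM. Il2rb is also borne by NK cells, whose 8 markers summed to 3.03, 116, 34.4 and 184 CPM, with the part of NK cells in Il2rb not tested.

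Il4ra, the alpha chain of the IL-4 and IL-13 receptors, was at 14.3, 51.1, 12.7 and 186 CPM. Lymphoma 4 was 14.7-fold above lymphoma 3 (12.3 to 17.7), and lymphomas 1 and 3 did not differ beyond counting error. The spread fell under 8-fold without lymphoma 4. Il13ra1, the chain that joins Il4ra on non-lymphoid cells, ranged from 1.39 CPM in lymphoma 1 to 11.2 CPM in lymphoma 4. Il21r, the receptor chain for IL-21, a helper T cell signal to B cells, was at 46.1, 74.7, 24.04 and 90.6 CPM, a range of 3.77-fold (3.26 to 4.36). The ligand gene Il21 was at 0, 0.446, 0.0981 and 20.8 CPM. Its 189 counts in lymphoma 4 stood 8-fold or more above the other libraries, as did 0.812% of all genes. In CPM they were 54.8-fold above the 3-count floor in lymphoma 1, which had 0 counts. Il4 itself had 8, 5, 0 and 12 counts, and Il15 was above 1 CPM only in lymphoma 4, at 6.27 CPM.

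**Figure D4:**
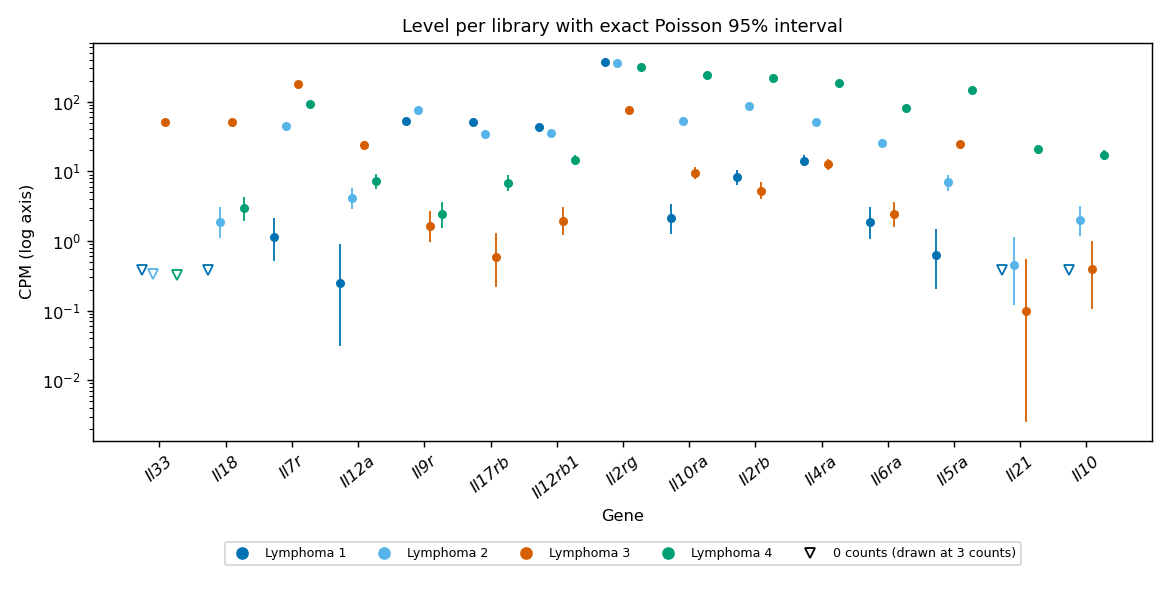
Level of 15 genes in CPM on a log axis; each point is 1 library with its exact Poisson 95% interval, and open triangles are libraries with 0 counts, drawn at the level of 3 counts. Il33 is seen in lymphoma 3 alone, Il9r in lymphomas 1 and 2 at over 50 CPM, and Il10ra and Il5ra are highest in lymphoma 4.

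Among the receptors that share the common beta chain, Il5ra and Il3ra differed. Il5ra, the alpha chain for IL-5, which acts on eosinophils and on some B cells, was at 0.632, 6.91, 24.4 and 148 CPM. No neighbours in the order 4, 3, 2, 1 overlapped. The ratio of lymphoma 4 to lymphoma 1 was 234 (100.2 to 723), the widest of the named genes with a count in each library. The summed B cell markers had the same order, but at 5891 CPM in lymphoma 4 and 4269 CPM in lymphoma 3. Of the 8 markers, 5 were highest in lymphoma 4, 2 in lymphoma 3 and 1 in lymphoma 2. Il3ra, the alpha chain for IL-3, was at 11.0, 15.3, 18.3 and 12.4 CPM, a 1.66-fold range (1.28 to 2.17) in which each library overlapped its neighbour. The beta chain itself, Csf2rb, which the name rule leaves out, was at 1.39, 27.7, 12.2 and 117 CPM. Il3 had no count and Il5 had 3 counts, all in lymphoma 3.

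The 4 receptor chains of the gp130 and IL-12 group that reached 10 CPM were lowest in lymphoma 3 or lymphoma 1. Il6st, which encodes gp130, the signalling chain for IL-6 and IL-11, was at 50.8, 57.6, 12.8 and 82.7 CPM. Il6ra, the chain that binds IL-6, varied more and was at 1.90, 25.3, 2.45 and 80.8 CPM, with lymphomas 4 and 2 above lymphomas 3 and 1, which overlapped. Il27ra, the IL-27 chain, was at 70.1, 82.2, 9.62 and 84.1 CPM. Only lymphoma 3 was low, and without it the range was 0.264 on the log2 scale. Il12rb1, shared by the IL-12 and IL-23 receptors, was at 43.3, 35.1, 1.96 and 14.6 CPM. The ratio of lymphoma 1 to lymphoma 3 was 22.1 (14.1 to 36.6). Its partner Il12rb2 was low, with 19, 43, 3 and 36 counts, and 40% of its exon bases overlap Serbp1 on the other strand. Il11ra1, the IL-11 chain, had its most counts, 95, in lymphoma 3. Its near copy Il11ra2 had none, and reads shared between such copies may be lost or split. Of the ligands, only Il12a passed the filter, at 0.253, 4.13, 24.04 and 7.26 CPM. Lymphoma 3 was highest and lymphoma 1 lowest, with lymphomas 2 and 4 overlapping. Il6 had 1 count at most and Il23a had 3 counts, all in lymphoma 3.

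The IL-1 family held the sharpest differences between single libraries. Il33 encodes a nuclear alarmin released from damaged cells, best known from stromal and epithelial cells. It had 0, 0, 525 and 0 counts, or 51.5 CPM in lymphoma 3 (47.2 to 56.1), 136-fold above the 3-count floor in lymphoma 1. Il18, which encodes an inflammasome-activated cytokine, had 0, 17, 525 and 27 counts, or 0, 1.90, 51.5 and 2.97 CPM. Both stood 8-fold or more above the other libraries in lymphoma 3, as did 0.82% of all genes. Of the 8 stroma and endothelium markers, Pdgfra and Col3a1 had 0 counts in every library. The list summed to 64.2, 81.5, 137 and 154 CPM, with 3, 2, 3 and 2 of its 8 genes at 0 counts. Pecam1, which B cells and other blood cells carry too, made up 124 of the 137 CPM in lymphoma 3. Pdgfrb was at 16.2, 11.6, 10.7 and 0.330 CPM, and Vwf at 0.758, 0.892, 1.77 and 1.10 CPM. Of the 6 genes of the list past the filter, 1 was highest in lymphoma 3 and 2 were lowest there. The part of stromal or endothelial cells in Il33 was not tested. Casp1, the protease that activates IL-18, was at 1.14, 16.6, 59.4 and 78.8 CPM.

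The receptors of these 2 cytokines did not share 1 pattern. Il1rl1, the IL-33 receptor chain, which lies under 10 CPM and was picked after its values were seen, had 0, 3, 72 and 0 counts, so ligand and receptor gene were both highest in lymphoma 3. Il18r1 and Il18rap, the chains of the IL-18 receptor, were spread over 3 libraries. Il18r1 was at 1.14, 13.7, 13.5 and 17.5 CPM and Il18rap at 0.758, 17.96, 8.44 and 18.7 CPM. For both only lymphoma 1 was low by a wide margin, and neither kept an 8-fold range without it, nor did Il18r1 without lymphoma 4. Il1rap, the accessory chain used by the IL-1, IL-33 and IL-36 receptors, was at 3.54, 5.80, 6.77 and 17.6 CPM.

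These receptor genes lie side by side on chromosome 1, all on the plus strand, between position 40074079, where Il1r2 starts, and position 40551705, where Il18rap ends (GRCm38). In that order they are Il1r2, Il1r1, Il1rl2, Il1rl1, Il18r1 and Il18rap. All 6 differed 8-fold or more between libraries in CPM + 1, as did 16.3% of all genes, but the 6 did not share 1 pattern. Their ranges ran from 8.07-fold for Il1rl1 to 11.2-fold for Il18rap. In FPKM + 1, Il1r2, Il1rl2, Il18r1 and Il18rap fell under 8-fold. Il1r1 and Il1rl1 reached at most 0.953 and 0.586 FPKM. Il1rl2, the IL-36 receptor chain, was at 20.8, 17.5, 1.37 and 1.76 CPM, high in lymphomas 1 and 2 and low in the others. Its neighbour Il1r1, the signalling IL-1 receptor, was at 11.8, 10.04, 1.28 and 0.330 CPM and was named here once its values were known. Il1r2, a decoy that binds IL-1 without signalling, was at 0.253, 1.45, 1.08 and 10.3 CPM, with lymphoma 4 highest. It is known from neutrophils, whose 8 markers summed to 22.6, 168, 94.0 and 628 CPM, and their part in Il1r2 was not tested. Il1b, the main secreted IL-1, had 3, 20, 1 and 55 counts, and the receptor antagonist gene Il1rn had 1, 7, 2 and 15.

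**Figure D5:**
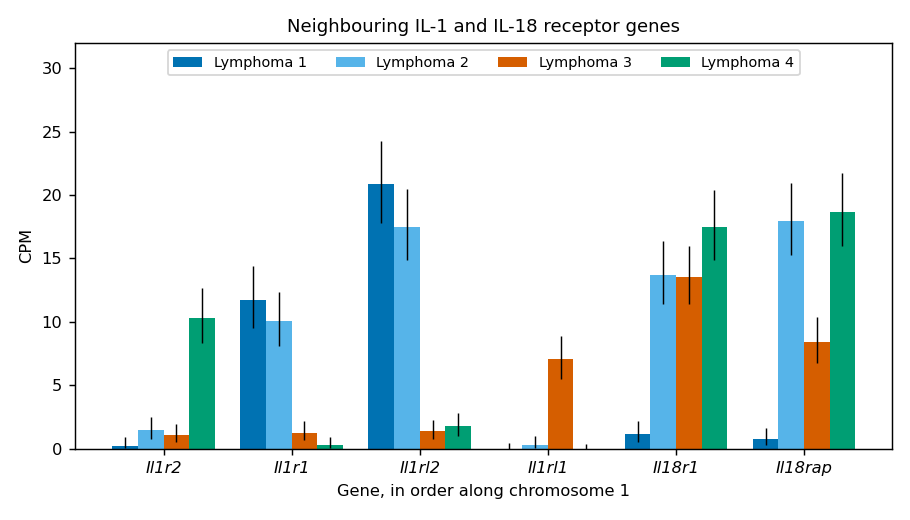
CPM of 6 neighbouring IL-1 and IL-18 receptor genes in their order along chromosome 1; each bar is 1 library and error bars are exact Poisson 95% intervals. Il1r1 and Il1rl2 are highest in lymphomas 1 and 2, Il1rl1 in lymphoma 3, and Il1r2 in lymphoma 4.

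In the IL-10 family, Il10ra (chr9:45253837-45269149, minus strand), which binds IL-10, a cytokine that restrains inflammation, was at 2.15, 53.1, 9.62 and 245 CPM. No neighbours in the order 4, 2, 3, 1 overlapped, and the ratio of lymphoma 4 to lymphoma 1 was 114 (71.0 to 196). Il10rb, the second chain of that receptor, varied less, at 11.0, 17.96, 12.1 and 43.9 CPM, and 14.9% of its exon bases overlap Gm21970. The ligand gene Il10 was at 0, 2.01, 0.393 and 17.3 CPM, so Il10 and Il10ra were both highest in lymphoma 4 and lowest in lymphoma 1. The 4 regulatory T cell markers, from cells that can make IL-10, summed to 87.3, 109, 20.5 and 231 CPM but took different courses. Foxp3 was at 13.5, 19.2, 15.1 and 25.1 CPM, a much narrower range than that of Ctla4, at 1.14, 10.9, 2.4 and 120 CPM. The part of such cells in Il10 was not tested. Il20rb, a chain of the IL-20 receptors that epithelial cells use, was at 0.379, 0.223, 10.8 and 0.880 CPM, with lymphoma 3 alone above 1 CPM. Its partner Il20ra had 6 counts in lymphoma 2 and none elsewhere.

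Il17ra, the chain common to the IL-17 receptors, was among the steadiest members at 80.5, 124, 88.9 and 139 CPM (108 ± 27.8 CPM, SD, n = 4), a range of 1.73-fold (1.57 to 1.90). Il17rb, which binds IL-25, was not steady, at 50.8, 34.2, 0.589 and 6.82 CPM. No neighbours overlapped, and the ratio of lymphoma 1 to lymphoma 3 was 86.2 (39.3 to 236). Its ratio of lymphoma 2 to lymphoma 1 was 0.674 (0.579 to 0.784), an interval that spans the median of the 103 genes above, though Il17rb is not 1 of them. For Il12rb1 and Il1rl2, also highest in lymphomas 1 and 2, the intervals lay above that median. Their ratios were 0.811 (0.694 to 0.948) and 0.840 (0.671 to 1.052). Il17a had 2 counts, in lymphoma 2, Il17f 2 counts, in lymphoma 3, and Il25 none. Il16, a chemoattractant for CD4+ cells made from a scaffold protein and no relative of the other ligands, was at 45.1, 117, 70.3 and 272 CPM without overlap between neighbours. Of its exon bases 15.3% overlap Stard5 on the other strand. Il4i1, a secreted amino acid oxidase, had 2 counts in all but up to 6.15 FPKM, and 83.9% of its exon bases overlap Tbc1d17, so no level is given for it.

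The pathway genes are signalling genes and a list of partner chains whose names do not begin with IL. Together they had a median SD of 0.723 on the log2(CPM + 1) scale, against 1.23 for the interleukin and receptor genes. The part of level in that difference was not tested. Of 44 genes on the 6 pathway lists, 43 passed the filter, 12 of them (27.9%, against 16.3% of all genes) differed 8-fold or more, and 28 (65.1%, against 34.0%) were highest in lymphoma 4. Partner chains made up 5 of the 43 genes and 4 of the 12. The number with an 8-fold range was 12 without lymphoma 2 (16.2% of all genes), 6 without lymphoma 1 (10.4%) and 7 without lymphoma 4 (8.77%). All 4 JAK kinase genes were highest in lymphoma 4 and none reached 8-fold. Jak1, the most abundant, was at 165, 265, 160.2 and 459 CPM, and Jak3, the kinase bound to the common gamma chain, at 55.1, 114, 102 and 223 CPM. Of 7 STAT genes, Stat2 and Stat4 passed 8-fold. Stat4, which acts below the IL-12 receptor, had the largest spread at 0.505, 19.6, 0.883 and 46.7 CPM, the same order of libraries as Il2rb apart from lymphomas 1 and 3. Of 8 feedback inhibitor genes of the SOCS family, Socs3 alone passed, at 7.2, 37.0, 2.06 and 34.7 CPM, while the most abundant, Socs7, stayed at 36.3 ± 9.11 CPM (SD, n = 4). Of 14 genes for IL-1 and IL-18 signalling, 3 passed, Casp1 with the largest spread and 2 IRAK genes. Pycard, the inflammasome adaptor and the most abundant of that list, was at 225, 169, 37.4 and 42.1 CPM. Of 5 genes for IL-17 signalling 2 passed, with the RNase gene Zc3h12a at 1.77, 40.7, 14.7 and 50.03 CPM and the adaptor gene Traf3 at 52.5 ± 27.6 CPM (SD, n = 4). Of the 6 partner chains whose names do not begin with IL, 4 passed. Csf2rb had the largest spread, and Crlf2, the TSLP receptor chain, was the most abundant and steady at 47.4 ± 11.3 CPM.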

How the data were processed

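The authors deposited whole-number counts per gene, made with STAR 2.4.2a on mm10 per the submitters' processing notes, and a second table without a named unit, read here as FPKM from Cufflinks 2.2.1 per the same notes. Neither the annotation nor the strand setting is stated. The protocols describe red cell lysis and no sort for tumour cells. Of 24969 rows of counts, 26 carried dates in place of names, at most 0.201% of counts, and were left out. Of the FPKM columns, 5 matched no sample and were not used. Members and lists were chosen with earlier results of these data known.

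CPM used TMM sizes from edgeR 4.0.16 (R 4.3.3), with factors of 0.839 to 1.17, estimated on genes with 1 CPM or more in a library. Standing apart meant 8-fold or more from the nearest other library in CPM + 1, with 10 CPM or more on the high side. The interleukin genes named are those with 10 CPM or more (before TMM scaling) in a library, and of each pathway list the most abundant and the most variable gene; exceptions are marked, and 1 pathway gene is left out of the text. Gene positions and exon bases are from GENCODE M21 (GRCm38). Ratios between libraries carry exact conditional intervals (scipy 1.17.1). The rules were tested on simulated counts with planted changes. The simulated spread between libraries was set below the common biological coefficient of variation here (0.839). That run therefore gives no rate of false calls for these libraries. Alternatives were DESeq2 1.42.0 size factors, total counts, no filter, a mean of 5 CPM, a pseudocount of 0.25 CPM, 4-fold, FPKM and each library left out.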

Additional observations from a re-analysis of the deposited data

Results flagged for a closer look

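Among the 31 genes named by the 10 CPM rule, 6 had 1 library far from the other 3, judged by its gap to the nearest library as a share of the whole range in log2(CPM + 1), with a limit of 0.829 for 4 libraries. Chance alone passes this limit in about 1 of 20 groups, and 7.17% of the 10242 genes that reached 10 CPM passed it in these libraries, against 19.4% of the 31. Lymphoma 3 was the far library for 4 of them. It was low for Il27ra (share 0.914), Il2rg (0.885) and Il2ra (0.865), and high for Il33, where the other libraries had 0 counts (share 1.0). Lymphoma 1 was low for Il18r1 (0.889), and lymphoma 4 was high for Il21 (0.88). Il33 and Il21 reached 10 CPM only in their high library, so they were named through the same library that the gap then flagged. With 0 counts elsewhere, the share of Il33 could only be 1.0. The share of 19.4% is therefore a description and not a test. Il2rg was at 76.7 CPM in lymphoma 3 and at 311 to 373 CPM in the others.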

How the results depend on the processing

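The count of members with an 8-fold range (22) was 33 under the 4-fold rule (35.7% of all genes), 28 with a pseudocount of 0.25 (26.4%), 19 at a mean of 5 CPM (19.1%) and 11 in the FPKM table (8.28%); adding 1 FPKM weighs more on low values than adding 1 CPM. It was 13 to 21 with 1 library left out (8.77% to 16.2% of all genes). Members standing apart in a library (4, with 3.54% of all genes) were 14 under the 4-fold rule (9.72%), 2 in the FPKM table (1.53%) and 7 to 12 with 1 library left out (4.12% to 8.03%), where fewer neighbours remain. The median SD of log2 values (1.23) was 0.447 with no filter (0.314 for all genes), which adds genes at or near 0, 1.72 at a mean of 5 CPM (0.695) and 1.05 to 1.49 with 1 library left out. The pathway count (12) was 5 in the FPKM table (8.28% of all genes) and 6 to 12 with 1 library left out (8.77% to 16.2%). The alternatives for the pathway count were added after seeing the data. Of the 31 named genes, 31 kept their side of 8-fold with DESeq2 size factors, 29 with total counts and 22 in FPKM. With total counts Il16 passed 8-fold (3.04 in log2) and Il1rl2 did not (2.91). In FPKM 28 of 31 kept their highest library, the exceptions being Il27ra, Il2rg and Il2ra. Total counts moved the median log2 ratio of lymphoma 4 to lymphoma 1 over all genes from 0.12 to 0.51, and the members' from 1.07 to 1.41; 31 members were then highest in lymphoma 4, 29 with DESeq2 and 27 in FPKM (40.6%, 36.3% and 32.2% of all genes). With 3 counts at 0.294 to 0.379 CPM, differences between libraries near those levels were not detectable at this depth. No paired analysis was possible because the labels give 1 group.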

Other observations

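Ligand genes that lie close together had unequal counts. Il10, Il19, Il20 and Il24 lie between positions 130882074 and 131024974 on chromosome 1 (GRCm38). In lymphoma 4, Il10 had 157 counts and Il24 had 10, while Il19 and Il20 had none. Il21 and Il2, which are neighbours on chromosome 3, had 189 and 5 counts in that library. On chromosome 11, Il4, Il13, Il5 and Il3, the genes of the type 2 cytokine region, had 12, 0, 0 and 0 counts in lymphoma 4.

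For several receptor genes the ligand gene had few counts or none. Il9r, Il3ra and Il17ra had levels above 10 CPM in at least 1 library, while Il9 and Il3 had 0 counts in each library and Il17a had 2 counts in all. Some pairs had the same highest library. Among them were Il33 with Il1rl1 in lymphoma 3, and Il10 with Il10ra, Il21 with Il21r, Il15 with Il15ra and Il4 with Il4ra in lymphoma 4. Lymphoma 4 was highest for 29 of the 47 members past the filter (61.7%, against 34.0% of all genes), which by itself makes such pairs frequent there. They were picked after their values were seen and were not tested.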
